A study of Drosophila melanogaster with 3 samples.

Results

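The antisense Penelope small RNAs of strain A2h are described here: small RNAs complementary to the transcript of the retroelement Penelope, listed from the ovaries of 1 Drosophila melanogaster strain. They were chosen by strain and strand, as the lines of the A2h list with orientation minus, each distinct sequence being counted once. This gave 432 sequences with 703 reads, out of 2670 distinct sequences in the lists of all 3 strains. The 42 sense sequences of A2h, with 45 reads, are treated apart at the end. Antisense sequences of strains A1a (552 sequences, 1015 reads) and A2d (1036 sequences, 2347 reads) serve as reference.

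Each strain was represented by 1 library of ovarian RNA from flies aged 3 to 5 days and kept at 25 degrees, from which small RNAs of 23 to 29 nt were cut out of a gel. According to the study's design text these are strains with Penelope piRNAs visible on Northern blots. The labels give each by its name alone, so its insertions and copy number are not known here, and the lists hold no cellular gene by which the tissue could be checked. Because a strain has 1 library, strains were not tested against each other. Bracketed ranges are exact (Clopper-Pearson) 95% intervals on reads. They cover counting error only and are too narrow, since reads amplified by PCR without molecular identifiers are not independent molecules. Reads listed for Penelope, not all small RNAs of a library, are the depth behind each value.

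Penelope is a retroelement first known from hybrid dysgenesis in Drosophila virilis. In fly ovaries piRNAs load into the Piwi proteins Piwi, Aubergine and Argonaute3, and antisense piRNAs recognise transposon transcripts. New piRNAs arise in a pair of connected ways. In the ping-pong cycle, slicing of a transcript by one piRNA makes the 5′ end of a piRNA on the other strand. In phased biogenesis the endonuclease Zucchini cuts a piRNA precursor stepwise ahead of uridines, so that a cut makes the 3′ end of one piRNA and the 5′ end of the next. A U just after the 3′ end and piRNAs laid head to tail are the known marks of the second way. It also gives a base 1 of U, which alone does not tell the ways apart.

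The 12 antisense sequences with most reads in A2h are printed first, since the ends described below are mostly theirs. They are written 5′ to 3′ as in the lists, T standing for U, with base 1 in capitals, and are named by their 5′ and 3′ ends on the element's plus strand. Positions count from 1 on the authors' Penelope sequence, so an antisense read runs from a higher to a lower position.
1437 to 1410: Tccactgtgtccagtattgctcgatccc
1265 to 1238: Tgctgattgggagagcgaacttcggccc
82 to 57: Tgtacctatgtagacactattgcact
1420 to 1396: Tgctcgatccctactgttttggttg
1423 to 1398: Tattgctcgatccctactgttttggt
1158 to 1133: Tccgctaaggctaggttccgttgatc
1268 to 1245: Tcttgctgattgggagagcgaact
1270 to 1245: Tctcttgctgattgggagagcgaact
1493 to 1469: Tatccgacgatagaattttaatatt
615 to 589: Tttcaatatttatttgttggctggctc
1360 to 1337: Ttttgtgcgcgccgactcttgtgt
1421 to 1396: Ttgctcgatccctactgttttggttg

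These 12 sequences held 124 of the 703 reads (17.6%, 14.9 to 20.7%), and all 12 began with U. They were 24 to 28 nt long, and 9 of them lay between positions 1200 and 1500 of the element. The first made up 2.56% of the A2h antisense reads with 18 reads, 1.28% of those of A1a with 13, and 1.07% of those of A2d with 25. The second made up 2.28% of the A2h reads with 16 reads, 0.591% of the A1a reads with 6, and 0.298% of the A2d reads with 7. For the sequence from 1158 the A2h list had 10 reads (1.42%), that of A1a 1 read (0.0985%) and that of A2d 8 reads (0.341%). The sequence from 615, which also matches the second terminal repeat, went the other way, with 7 reads in A2h (0.996%) and 102 in A2d (4.35%), and 3 in A1a (0.296%). Each of the 12 was also listed in A1a, and 11 were listed in A2d, where the one from 1421 had no read. No sequence dominated: 334 of the 432 sequences were seen a single time and held 47.5% of the reads.

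Antisense 5′ ends of A2h gathered in the stretch above position 1200 and up to 1500, where 340 reads of 163 sequences (48.4%, 44.6 to 52.1%) began. In draws of 703 reads, A1a had 18.8% there (17.2 to 20.5% for 95% of draws) and A2d 15.1% (12.9 to 17.1%). The stretch was chosen for its reads in A2h, so these shares are a description. Elsewhere the antisense reads of A2h left large parts of the element uncovered. They covered 2229 of 3399 positions (65.6%), whereas A1a and A2d, each thinned in 200 such draws, covered 2654 ± 51.7 and 2539 ± 75.5 positions (SD over draws). Here reads of the repeats cover both copies. At 1 place per sequence A2h covered 1951 positions, below the draws of A1a (2167, 2089 to 2239 for 95% of draws) and inside those of A2d (2078, 1941 to 2204). Uncovered stretches of 100 nt or more numbered 4 in A2h, against 1 each in the unthinned lists of A1a and A2d. The longest in A2h ran from 879 to 1009. Another ran from 708 to 820, and those from 186 to 304 and from 2967 to 3084 are the same stretch in both copies of the terminal repeat. At the other extreme, depth reached 77 reads at position 1416, within the overlap of 4 of the sequences printed above.

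**Figure D1:**
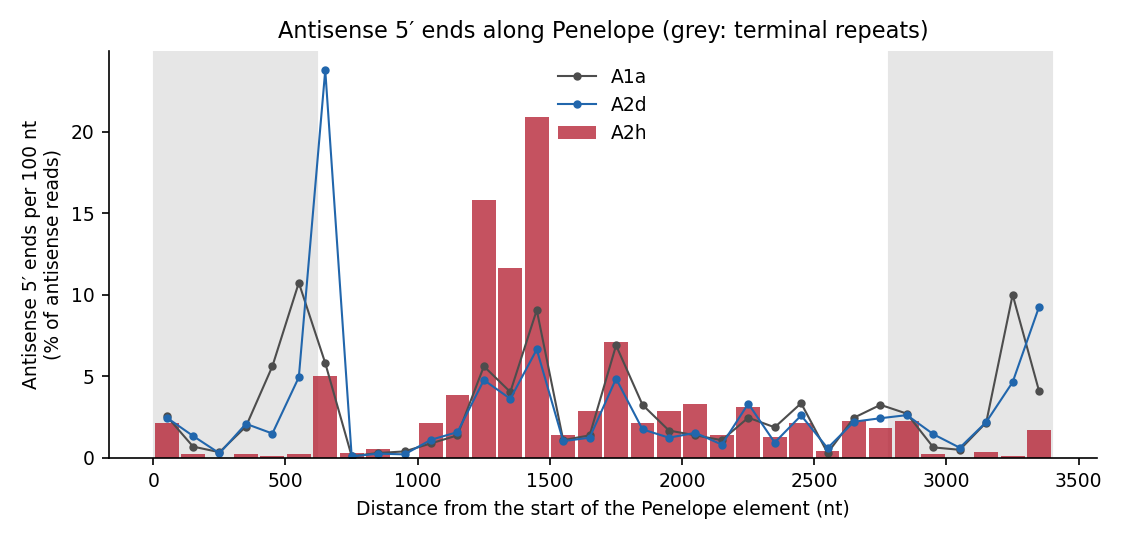
Share of antisense reads with their 5′ end in each 100 nt of Penelope (y axis, % of a strain's antisense reads) against distance from the element's start (x axis, nt), with A2h as bars and A1a and A2d as lines; reads with 2 places are divided between them. The A2h bars are highest between 1200 and 1500, up to 20.9% per 100 nt, and reach at most 2.13% within the grey left repeat below position 600.

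The 5′ ends of the antisense reads fell on 306 positions of the element. The 10 most used of these held 166 reads (23.6%, 20.5 to 26.9%), and 9 of the 10 lay between 1200 and 1500. In draws of the same size, the 10 most used 5′ ends held 29.5% of A1a reads (27.7 to 31.4% for 95% of draws) and 24.3% of A2d reads (22.2 to 26.7%). These counts divide a sequence with 2 places between both repeats, which touches 38 of the 432 antisense sequences of A2h but 156 of 552 in A1a and 335 of 1036 in A2d. With each sequence at 1 place the 10 most used 5′ ends held 23.6% in A2h, against 35.1% in A1a (33.1 to 36.9% for 95% of draws) and 32.7% in A2d (30.3 to 35.4%). The 5′ ends of A2h were thus not more concentrated on few positions than those of the reference strains under either count, and less so at 1 place. At 1 place A2h had 281 distinct 5′ ends, against 266 ± 5.89 in A1a and 267 ± 9.19 in A2d, and it had 432 distinct sequences against 416 ± 6.72 and 417 ± 10.6 (SD over draws).

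Position 1265 was the leading 5′ end, with 30 reads of 7 sequences. Its most frequent form ended at 1238, and shorter and longer forms with the same 5′ end stopped within a few bases of it.
1265 to 1238: Tgctgattgggagagcgaacttcggccc
1265 to 1239: Tgctgattgggagagcgaacttcggcc
1265 to 1240: Tgctgattgggagagcgaacttcggc
1265 to 1237: Tgctgattgggagagcgaacttcggccct
These forms had 16, 5, 3 and 3 reads in that order, and 3 further forms with a mismatch had 1 read each. A1a had 21 reads and A2d 28 reads at this 5′ end, which is 2.07% and 1.19% of their antisense reads against 4.27% in A2h. The next 5′ ends were 1437, with 25 reads (3.56%) of 5 sequences, and 1493, with 22 reads (3.13%) of 8 sequences. At 1493 the 3′ ends were spread, and 7 different ones gave lengths of 23 to 29 nt, the most used holding 8 reads. All 3 of these 5′ ends are a U, as were 28 of the 30 positions with 5 or more 5′ ends.

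Over those 30 positions, which held 301 reads, the most used 3′ end took 67.1% of the reads. The same measure was 58.04% in A1a (54.8 to 61.2% for 95% of draws) and 65.8% in A2d (62.01 to 69.2%). Each such 5′ end of A2h was joined to 2.73 different 3′ ends on average, against 3.56 ± 0.157 in A1a and 3.29 ± 0.179 in A2d (SD over draws).

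The 3′ ends also fell on 306 positions. The 10 most used held 162 reads (23.04%, 19.98 to 26.3%), against 24.2% of A1a reads (22.4 to 25.96% for 95% of draws) and 28.8% of A2d reads (26.5 to 31.3%). At 1 place per sequence the shares were 24.9%, 30.6% (28.7 to 32.15%) and 33.55% (31.3 to 36.4%). Several 3′ ends were shared by reads whose 5′ ends differed by single bases. The 3′ end at 1238 held 25 reads, of which 16 began at 1265 and the others at 1261 to 1264 or 1266. At 1410, also with 25 reads, 5 neighbouring 5′ ends from 1434 to 1438 met the same 3′ end, 1437 having 18 of the reads.
1438 to 1410: Ttccactgtgtccagtattgctcgatccc
1437 to 1410: Tccactgtgtccagtattgctcgatccc
1436 to 1410: Ccactgtgtccagtattgctcgatccc
1435 to 1410: Cactgtgtccagtattgctcgatccc
1434 to 1410: Actgtgtccagtattgctcgatccc
The read numbers of these forms were 3, 18, 2, 1 and 1. The 3′ end at 1396 held 23 reads from the 5′ ends 1420, 1421 and 1423, with 12, 8 and 3 reads. The 3′ end at 1245 held 20 reads, 11 from 1268, 8 from 1270 and 1 from 1267. At 1348, with 17 reads, no 5′ end took more than 6 reads, and 5 different ones between 1371 and 1377 were used. Over the 38 3′ ends with 5 or more reads, a place in each repeat being counted separately, the most used 5′ end took 65.2% of the reads, close to the 67.1% found for 5′ ends.

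**Figure D2:**
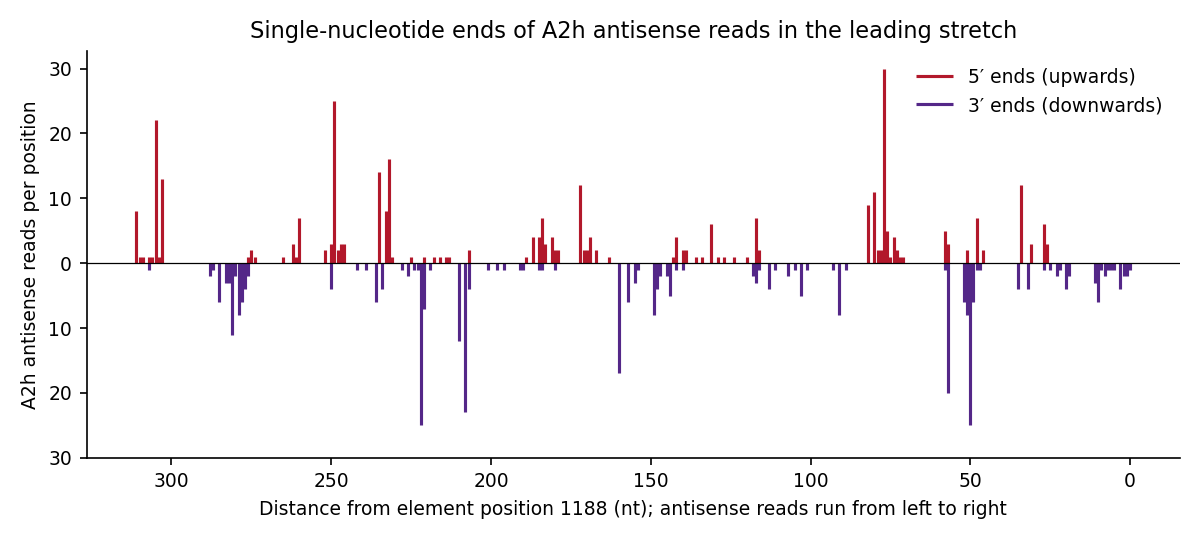
Antisense reads of A2h per single position from 1188 to 1500, with 5′ ends upwards and 3′ ends downwards (y axis, reads) against distance from position 1188 (x axis, nt, reversed so that reads run from left to right). The tallest 5′ end has 30 reads, at 1265, and the tallest 3′ ends have 25 reads each, at 1238 and 1410.

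The base that follows the 3′ end on the antisense strand was U for most A2h reads. To show it, the element's antisense strand is printed around the 5 most used 3′ ends, with the last 10 bases of the reads in lower case, the next base in capitals and 9 further bases.
3′ end 1238: acttcggcccTtttgcgagt
3′ end 1410: gctcgatcccTactgttttg
3′ end 1396: gttttggttgTtcttggttt
3′ end 1245: agagcgaactTcggcccttt
3′ end 1348: tgtgcgcgccGactcttgtg
Of the 10 most used 3′ ends, 9 were followed by U, the exception being 1348, where G follows. Among the 12 leading sequences, 11 were followed by U, and the one from 615 to 589 by G.

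Over all antisense reads of A2h with a known next base, 502 of 702 (71.5%, 68.01 to 74.8%) were followed by U. The last base of the reads was U in 40.5% and the base after next in 35.6%, so that the share stood out at a single position. From 3 to 10 nt beyond the 3′ end it lay between 42.9% and 51.6%. U makes up 42.9% of the known positions of the antisense strand. A1a reached 56.9% (53.8 to 59.97%) and A2d 53.2% (51.2 to 55.3%), both above the antisense strand's U content and below A2h, with no overlap of intervals. Counting each A2h sequence once gave 67.3%.

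**Figure D3:**
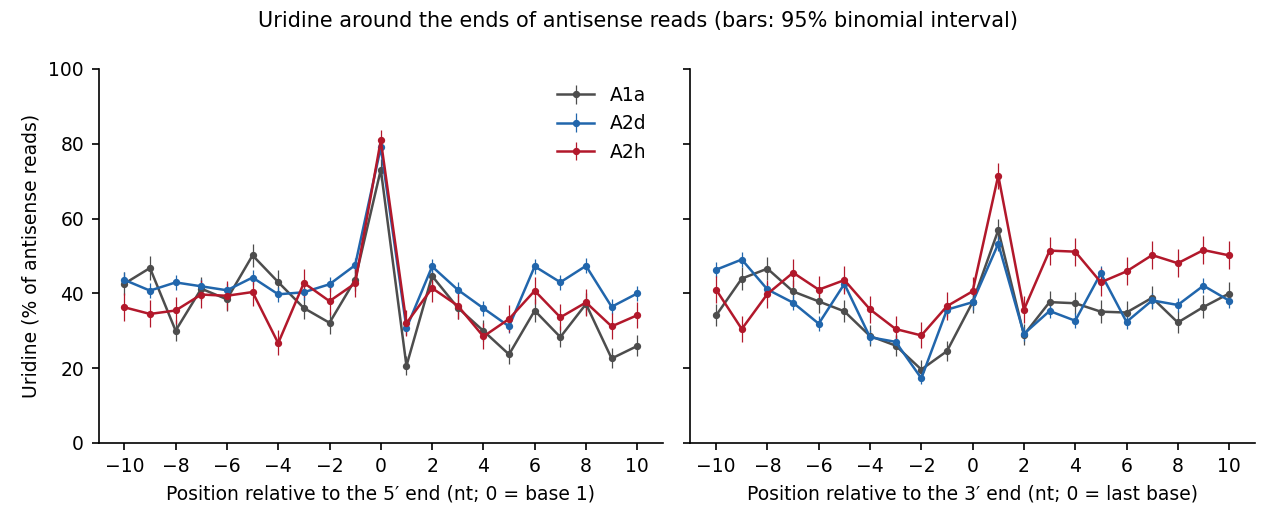
Share of antisense reads with uridine (y axis, %) at each position from 10 nt before to 10 nt after the 5′ end (left, 0 is base 1) and the 3′ end (right, 0 is the last base), by strain, with exact 95% intervals. All strains peak at base 1; at the base after the 3′ end, position 1 on the right, A2h reaches 71.5%, A1a 56.9% and A2d 53.2%.

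The share of U after the 3′ end varied along the element, and the strains had their reads in different stretches. Between 1200 and 1500 it was 72.4% (67.3 to 77.04%). A1a had 70.0% (62.9 to 76.4%) of 190 reads there and A2d 62.6% (57.3 to 67.7%) of 353 reads, intervals that overlap that of A2h. In the rest of the element between the repeats, from 619 to 2783, the share was 74.6% (69.2 to 79.5%) of 291 reads in A2h. The reference strains had 58.9% (53.4 to 64.2%) of 338 reads and 64.95% (61.8 to 67.98%) of 950 reads there, both intervals lying below that of A2h. This held for the pooled reads and, by part, only next to the second repeat. In that part A2h had 83.3% (72.7 to 91.1%) of 72 reads, A1a 59.5% (49.97 to 68.5%) and A2d 60.2% (53.75 to 66.3%). In the parts just below 1200 and just above 1500 A2h was also highest, at 78.9% of 71 reads and 68.2% of 148 reads. Its intervals in these parts overlapped those of both reference strains. Reads placed in the left repeat had the lowest shares, 32 of 64 reads in A2h (37.2 to 62.8%), 47.9% in A1a (43.3 to 52.6%) and 37.1% in A2d (34.1 to 40.2%). Such reads were 9.25% of the antisense reads of A2h, 45.5% of those of A1a and 42.6% of those of A2d, so the shares over the whole element combine the stretches in different proportions.

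In A2h, sequences with 5 or more reads had U at base 1 and just after the 3′ end more often than those with a single read. All 167 reads of the 20 sequences with 5 or more reads began with U (97.8 to 100%), and 149 of them (89.2%, 83.5 to 93.5%) were followed by U. Reads of 1 sequence share both bases, so these intervals rest on 20 sequences and are too narrow. The same holds for the other classes of sequences with more than 1 read. Of the 334 sequences with a single read, 69.8% (64.5 to 74.6%) began with U and 66.4% (61.01 to 71.4%) were followed by it. At base 1 the same classes had 85.9% (83.7 to 87.9%) against 73.5% (70.2 to 76.7%) in A2d, a rise as in A2h, and 68.3% against 72.6% in A1a. In the reference strains the intervals of the share followed by U overlapped between these classes, at 58.6% against 54.9% in A1a and 52.5% against 54.1% in A2d. A2h sequences with 2 to 4 reads, the class between, began with U in 85.6% of reads (80.0 to 90.2%). They were followed by U in 65.35% (58.35 to 71.9%), no more often than those with a single read. The classes were set on unthinned counts, so 5 reads are a smaller share of a deeper list.

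A 5′ end directly after a 3′ end would place the next antisense read head to tail. Of the 703 antisense reads of A2h, 143 (20.3%, 17.4 to 23.5%) had the 5′ end of a listed antisense read 1 nt beyond their 3′ end. For distances of 2 to 20 nt the share averaged 14.6% and ranged from 8.53% to 22.5%, and within that range only the distance of 19 nt exceeded that of 1 nt. Farther out, the distances of 23 and 24 nt did so as well, with 22.8% and 21.2%. With the smaller of the counts of 3′ and 5′ ends added up over positions, the distance of 1 nt held 83 reads against a mean of 51 over distances of 2 to 20 nt. That is a ratio of 1.63 and a score of 2.77 SDs of the other distances. The score was 3.76 in thinned A1a (2.03 to 5.63 for 95% of draws) and 1.28 in thinned A2d (0.545 to 2.09), so by score A2h lay within the range of A1a and above that of A2d. By ratio it lay inside both ranges, 1.34 to 1.85 in A1a and 1.19 to 1.75 in A2d, but at 1 place per sequence its ratio of 1.60 lay just above the 1.07 to 1.58 of A2d. Keeping A2h sequences with 2 or more reads lowered the score from 2.77 to 1.61. That lay below the A1a range and inside the A2d range, both drawn from lists without this filter.

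Since most 5′ ends are a U and most 3′ ends are followed by one, the spacing was also read at U positions alone. Of the 502 A2h reads followed by U, 128 (25.5%, 21.7 to 29.5%) had a 5′ end at that U. Where a U lay 2 to 20 nt beyond the 3′ end, it was a 5′ end for 24.02% of reads on average, with a range over distances from 11.7% to 33.4%, and 10 of the 19 other distances exceeded that of 1 nt. At U positions the distance of 1 nt was thus not set apart from the others in A2h. In A1a the share at 1 nt was 36.1% against a mean of 18.7% and a highest value of 27.7% at other distances. In A2d it was 50.2% against a mean of 34.5% and a highest value of 50.95%. Those values come from unthinned lists, in which more positions are used as 5′ ends. Thinned, the share at 1 nt was 32.15% in A1a (27.7 to 36.5% for 95% of draws) and 33.55% in A2d (24.8 to 42.5%), and the second range includes the 25.5% of A2h.

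**Figure D4:**
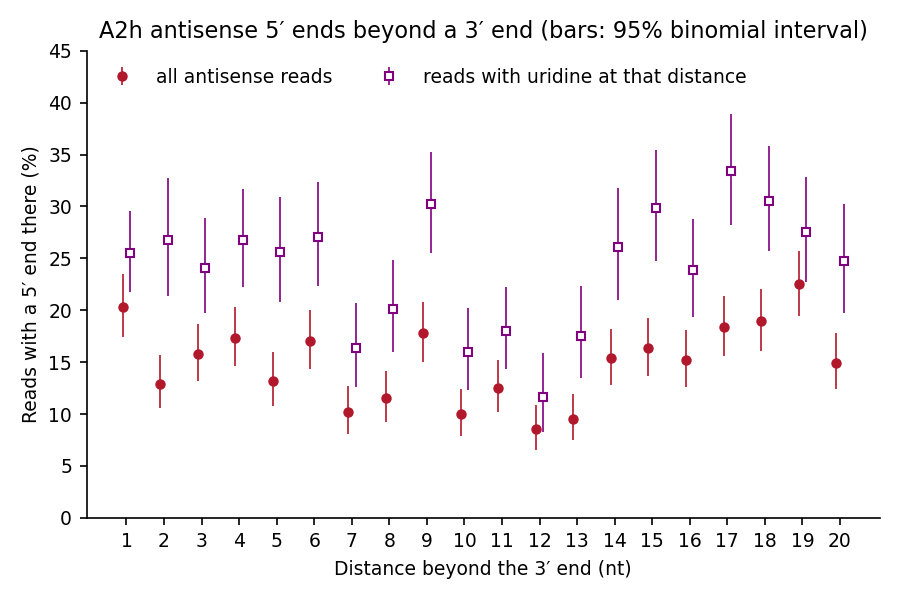
Share of A2h antisense reads (y axis, %) with the 5′ end of an antisense read at each distance of 1 to 20 nt beyond their 3′ end (x axis, nt), for all reads (filled circles) and for reads with uridine at that distance (open squares), with exact 95% intervals. Among all reads the distance of 1 nt reaches 20.3%; among reads with uridine there it is 25.5%, inside the range of 11.7 to 33.4% of the other distances.

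The longest run of antisense sequences laid head to tail had 4 members, which spanned 108 nt from 1493 to 1386. It is printed to show the spacing in actual sequences, the capital being base 1, which is the base that follows the 3′ end of the sequence before.
1493 to 1465: Tatccgacgatagaattttaatatttata
1464 to 1438: Ttttctttcagtaattttcgtgtctgt
1437 to 1410: Tccactgtgtccagtattgctcgatccc
1409 to 1386: Tactgttttggttgttcttggttt
The members had 4, 1, 18 and 1 reads, so the run was made of 1 abundant sequence and rarer neighbours. Of these, A1a listed the third alone and A2d the first and the third. A run of 4 could be started from 5 different 5′ ends, and none was longer.

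Base 1 of the antisense reads was U in 573 of 703 (81.5%, 78.4 to 84.3%), and C in 8.53%, A in 5.55% and G in 4.41%. U made up 36.0% of the inner bases of the same reads. The share was similar in the leading stretch between 1200 and 1500 (83.8%, 79.5 to 87.6%) and in the rest of the stretch between the repeats (81.4%, 76.5 to 85.7%), while U makes up 39.6% and 44.6% of the antisense strand there. Read by position, 53 of the 118 U positions between 1200 and 1500 (44.9%, 35.8 to 54.3%) were used as a 5′ end at least once. For C it was 14 of 62 positions (22.6%, 12.9 to 34.97%), for A 6 of 56 (10.7%, 4.04 to 21.9%) and for G 6 of 62 (9.68%, 3.63 to 19.9%). Just after a 3′ end lay 46 of the 118 U positions (39.0%, 30.1 to 48.4%), and 20 of the 118 served in both ways. Intervals on positions treat neighbouring positions as independent, which they may not be.

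Antisense lengths centred on 26 nt, with a mean of 26.1 ± 1.59 nt (SD over 703 reads). Reads of 26 nt made up 26.03% (22.8 to 29.4%) and reads of 24 to 26 nt 58.7% (55.01 to 62.4%), a length class that took 62.5% of the A1a reads (59.4 to 65.5%) and 63.9% of the A2d reads (61.9 to 65.9%), with overlapping intervals. In draws of 703 reads 95% of the values lay at 60.6 to 64.3% in A1a and 60.45 to 66.7% in A2d, both above A2h. The A2h mean of 26.08 nt lay above the draws of A1a (25.74 to 25.86 nt) and A2d (25.8 to 25.99 nt). These ranges leave out the counting error of A2h. Although the gel selection ended at 29 nt, 5 reads of 30 nt were listed. Lengths of 27 to 30 nt held 36.98% (33.4 to 40.7%) in A2h, 32.02% in A1a and 33.2% in A2d. The mean hardly differed between stretches of the element, from 25.99 to 26.2 nt. Reads beginning with U averaged 26.1 ± 1.59 nt and other reads 25.9 ± 1.60 nt (SD over reads).

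With the reference thinned to 703 reads and each sequence at 1 place, A2h had 85.6 ± 3.25 antisense sequences, 105 ± 3.35 5′ ends and 116 ± 3.58 3′ ends in common with A1a (SD over draws). With A2d it had 83.1 ± 4.76 sequences, 96.1 ± 4.87 5′ ends and 101 ± 4.86 3′ ends in common. Thinned alike, A1a and A2d had 103 ± 5.83 sequences, 117 ± 5.27 5′ ends and 122 ± 5.86 3′ ends in common. For 95% of draws, the 3′ ends shared by A1a and A2d (112 to 135) overlap those shared by A2h and A1a (108 to 122), as do the 5′ ends (107 to 126 and 98.97 to 111). With A2d, A2h shared 91 to 110 3′ ends and 86 to 105 5′ ends, ranges below those of A1a and A2d. For sequences, the range of A2h and A1a (78.97 to 91) lay below that of A1a and A2d (92 to 115). That of A2h and A2d (73 to 92.03) only just reached it. The 2 reference strains have many more reads in the repeats than A2h.

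Of the 432 antisense sequences, 256 (59.3%) were listed in neither A1a nor A2d, and they held 292 reads (41.5%, 37.9 to 45.3%). In the lists as deposited, the same share was 57.4% of A1a sequences and 72.8% of A2d sequences. With A1a and A2d thinned to 703 reads, 71.1% of A2h sequences (68.98 to 73.4% for 95% of draws) were in neither other list, against 65.1% in A1a (62.1 to 67.6%) and 65.8% in A2d (63.1 to 68.7%). Among the 52 sequences with 3 or more reads, 6 were listed only in A2h, with 3 or 4 reads each, and they are printed because they are the best supported ones of that kind.
1375 to 1348: Gactaacaaagagaattttgtgcgcgcc
1499 to 1473: Tgcccttatccgacgatagaattttaa
1319 to 1291: Tttgcactagctcctcaccgtctgcgatg
1330 to 1305: Ttcttttattgtttgcactagctcct
1423 to 1396: Tattgctcgatccctactgttttggttg
1774 to 1748: Tcctatggaagaacatattggtctcag
The first 2 had 4 reads and the others 3. All but the last began between 1200 and 1500. Of all 432 antisense sequences, 37.7% began there. Of the reads of A2h antisense sequences with 2 or more reads, 62.6% did, a share of reads and at a lower threshold. The share of the 52 sequences with 3 or more reads was not computed. The 5′ ends at 1043, 1373 and 1375, with 4 reads each, had no read in A1a or A2d. The 3′ end at 1348, which 3 and 4 of the reads from 1373 and 1375 share, had 10 reads in A1a and 16 in A2d. A count of 0 allows up to 3 reads in a list.

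The 45 sense reads of A2h were spread over 42 sequences, none with more than 2 reads. Those with 2 reads lay in the repeats at 329 to 351, and between them at 2398 to 2422 and at 2604 to 2628.
329 to 351: Ttgcgctcacttgtacagacgcc
2398 to 2422: Acccatagcctccggacgaatactc
2604 to 2628: Tcgaaagaaaaaagccaacagaacc
The second had 10 reads in A1a and 37 in A2d, the third 5 in each, and the first none in either. The first carries a mismatch, G where the element has A. An exact form at 329 to 351 had 1 read in A2h, none in A1a and 1 in A2d. At 329 to 352 an exact form had 1 read in A2h, none in A1a and 14 in A2d. Of the sense reads, 26 (57.8%, 42.2 to 72.3%) matched both repeats. Overlapping sense sequences formed spans, of which 559 to 605 held 12 reads and 308 to 361 held 9. No sense read began between 1200 and 1500, where 48.4% of the antisense reads did. That 0 of 45 allows a share of up to 6.67%, above the 4.99% of A1a (38 of 762 reads) and the 6.50% of A2d (99 of 1523 reads), so a lack was not detectable at this depth. Of the sense reads, 36 (80.0%, 65.4 to 90.4%) overlapped an antisense read of A2h somewhere. The antisense reads of A2h cover 65.6% of the element's positions, so many sense reads would meet one wherever they lay. The share for sense reads placed without regard to the antisense reads was not computed, and the 80.0% is no measure of pairing.

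A single sense sequence paired with an antisense one over 10 nt, the overlap left by the ping-pong cycle. The pair is printed with base 1 in capitals.
sense 2408 to 2431: Tccggacgaatactcaacttcagt
antisense 2417 to 2392: Ttcgtccggaggctatgggtttccta
They had 1 and 2 reads. The sense member carries a mismatch at 2430, outside the 10 nt. Pairs at other overlaps and pairs in the reference strains are not given here. Neither an excess nor a lack of 10 nt pairs can therefore be read from this pair.

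Sense reads were shorter than antisense reads, with a mean of 24.8 ± 1.95 nt (SD over 45 reads). Reads of 23 nt, the shortest length listed, made up 17 of 45 (37.8%, 23.8 to 53.5%), against 30 of 703 antisense reads (4.27%, 2.90 to 6.04%). Of these 17 reads, 14 matched both repeats and 14 carried a mismatch, which in 8 reads was or included an A-to-G change away from recurrent mismatches. In some others, such as the read from 571 to 593, the only mismatch lay at 580, where 414 of 414 listed reads are mismatched. Such reads were still left out of the exact matches. Among sense sequences that match exactly, the share of 23 nt was 13.04%, and among those with 1 place it was 15.8%. No read under 23 nt was listed, and 23 nt is also the lower bound of the gel selection.

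**Figure D5:**
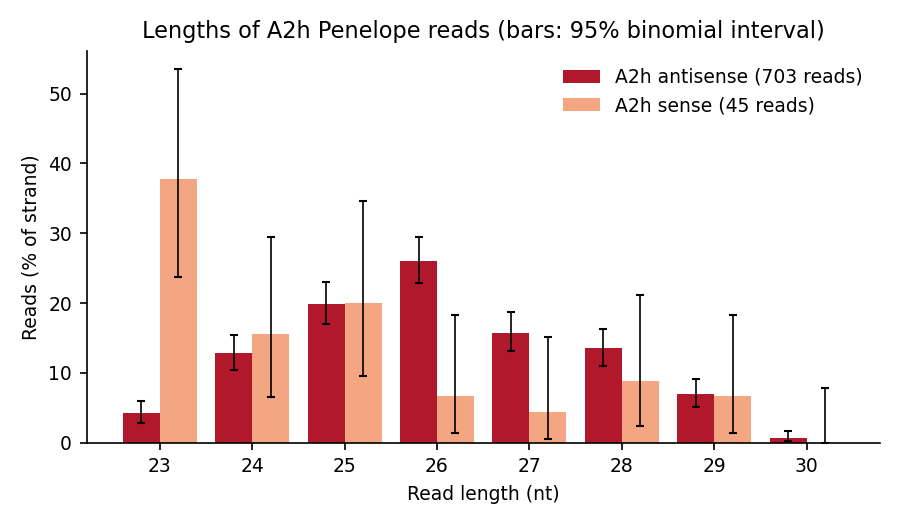
Length distribution of the A2h Penelope reads (x axis, nt; y axis, % of the reads of a strand) for the 703 antisense and 45 sense reads, with exact 95% intervals. Antisense reads peak at 26 nt with 26.03%, and sense reads at 23 nt with 37.8%.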

How the data were processed

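The deposited lists give, per the file headers, small RNA sequences matching Penelope with a read count, strand, start, end, length and mismatches. The deposited counts are whole numbers with different totals per list, and were used as raw counts. For aligner, trimming and element reference, the sources used here name nothing. Per the labels' protocols, small RNAs were size selected on a gel, ligated to adapters and amplified by PCR. The count of a sequence with 2 places is listed at each, so it was counted once (38 antisense A2h sequences, 64 reads), at its first place for shares and divided equally for ends, bins and spacing. Starts count from 0 in the lists and from 1 here. The element was rebuilt from all lists, replacing listed mismatches by the reference base (90 of 3399 positions unknown, no conflict). Empty lines, 3 in A1a and 2 in A2d, were not analysed here.

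A1a and A2d antisense reads were drawn without replacement to 703 reads, 200 times; the draws describe these libraries only. No p-value was computed. End, spacing and next-base measures were tested on simulated data, with and without head-to-tail runs cut ahead of U. The simulated reads outside such runs had no preference for U at either end. Whether the spacing score tells head-to-tail order from a preference for U alone was therefore not tested. Named items were, by a rule, the 12 antisense sequences with most reads, the 3 leading 5′ and 3′ ends with their sequences, the longest head-to-tail run, antisense sequences with 3 or more reads in A2h only, and the 5 leading sense sequences (3 are printed, the others being tied at 1 read) with those paired at 10 nt. Terminal repeats are the spans of sequences listed at 2 places, 3 to 618 and 2784 to 3399. Recurrent mismatches are positions with 10 or more reads of which over 50% are mismatched. The other ends, the abundance classes and the mismatch rule were chosen after their values were seen. Members and lists were chosen with earlier results of these data known. Coordinates are on the element; the fly genome was not used here. Tools were Python 3.11.15, numpy 2.4.6, pandas 2.3.3, scipy 1.17.1 and matplotlib 3.10.9.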

Additional observations from a re-analysis of the deposited data

Results flagged for a closer look

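The mismatch column was outside the measurements above, and in the sense reads of A2h it held a signal above the limit that a count of 0 allows. Leaving out 580, 2054, 3266, 3361, 3395 and 3398, positions at which 76.5 to 100% of the reads of all lists are mismatched, the 45 sense reads carried 21 mismatched bases. Of these, 15 (71.4%, 47.8 to 88.7%) were A-to-G changes, with the authors' Penelope base first. The share was 7.37% (7 of 95) in A1a sense reads, 18.8% (39 of 207) in A2d sense reads and, on the strand of the read, 4.05% (3 of 74) in A2h antisense reads. In each of those sets G-to-T was the most frequent change, at 49.5%, 38.2% and 39.2%, while A2h sense reads had 2. The 15 bases lay in 13 reads of 12 sequences (28.9% of sense reads, 16.4 to 44.3%), of which 11 reads matched both repeats and 8 were 23 nt long. Of the sense reads with such changes, 27 of 31 in A2d and 2 of 6 in A1a matched both repeats. Reads matching both repeats were 26 of 45 sense reads in A2h, 401 of 1523 in A2d and 230 of 762 in A1a. The shares above thus compare sets of different make-up. The positions were spread over A349G and A574G (3 reads each), A551G (2 reads) and 7 others with 1 read each. Independent reads cannot be told from PCR copies here, and the origin of the changes was not tested.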

How the results depend on the processing

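No paired analysis was possible because each strain had 1 library. Other settings gave 81 values, of which 58 lay inside the interval or range of draws of the reported value (for the A2h spacing score, within 1.5 times). Some of the 58 could not have moved. An example is the share of 23 nt among sense reads without 1200 to 1500, where no sense read began. Counting each sequence as 1 gave 73.8% U at base 1 (74.2% within 1200 to 1500), 12.5% and 12.7% of reads at the 10 most used 5′ and 3′ ends, 67.3% U after the 3′ end and 37.7% of reads within 1200 to 1500. Keeping sequences with 2 or more reads gave 92.1% (90.9%), 40.1%, 37.9%, 76.2% and 62.6% for the same measures, and a spacing score of 1.61. With 1 place only, 53.2% began within 1200 to 1500; bins of 50 and 200 nt gave 28.3% and 59.7% in the 3 strongest neighbours, which span other lengths by construction. Without 1200 to 1500 the 10 most used 5′ ends held 19.6%. The share of 23 nt among sense reads fell to 15.8% with 1 place and 13.04% with exact matches. Restricting the next base to reads between the repeats, added after seeing the data, gave 73.4%. Ends at 1 place per sequence, also added then, gave 35.1% and 30.6% at the 10 most used 5′ and 3′ ends of thinned A1a, and 32.7% and 33.55% of A2d. The cause of these shifts was not tested. Depth limits the sense values most, with 45 reads, and single reads make up 47.5% of the antisense list.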
